A study of Mus musculus with 2 samples.

Results

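The genes described here encode carbonic anhydrases and bicarbonate transporters, proteins of pH regulation, and were read in Müller glia (MG), the predominant glia of the retina. They were chosen by name as Car2, Car3, Car4, Car12, Car14, Slc4a3, Slc4a4 and Slc4a7, and every probe set annotated to 1 of them alone was taken. Of the 8 genes, 7 had such probe sets, 93 of the 241576 on the array, and 7 of 20412 genes with a value. Slc4a7 matched no probe set and was not analysed here, and 1 probe set annotated to both Aph1a and Car14 was left out of the gene values.

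MG were FACS-purified from adult mouse retinas. The undamaged control array carried RNA of 12 retinas, and the light damage array carried RNA of 10 retinas from mice exposed to white light of 10000 lux for 8 hours and analyzed a week later. The reporter line of the study joined a tamoxifen-inducible Cre under the Rlbp1 promoter to a tdTomato allele that needs Cre, and a Hes5-GFP line was also in use. Mice for light damage were crossed to the albino Swiss Webster strain, which carries the leucine variant of Rpe65 that modifies susceptibility to light. Whether the control array came from the same cross is not given in the sources used here, so background strain and light damage cannot be told apart. Each condition has a single array, so the differences could not be checked against replicates and were not tested. In such pooled RNA, fewer cells of a type and less RNA per cell cannot be told apart either.

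Carbonic anhydrases interconvert carbon dioxide and water with bicarbonate and a proton. In the retina, photoreceptors release large amounts of carbon dioxide and lactic acid, and MG are known to take up carbon dioxide, hydrate it and carry the bicarbonate toward the vitreous and vessels. Cytosolic enzymes do this inside the cell, membrane-bound enzymes act on its outer face, and transporters of the Slc4 family move bicarbonate with sodium or in exchange for chloride.

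None of the 7 genes stood higher or lower by 1 or more on the log2 scale after light damage. For each probe set the control log2 value was subtracted from that after light damage, and the median of these gives the difference of a gene. The SD is the spread of these exon-level readings on the same arrays. It is not a spread over replicates, and its sources were not told apart. The differences ran from −0.52 for Car3 to 0.40 for Car12, with 5 genes below 0 and 2 above. At a mean level of 5 or more, where 6 of the 7 genes lay, 0 were higher and 0 were lower by 1 or more, while 1.75% of the 16534 genes at such levels were higher and 3.47% were lower (33.5% of these calls were higher, and 45.7% after quantile normalization). The median over the 6 genes was −0.12, and that over all 16534 genes was −0.03. Among all these genes, 73.8% lay as near to 0 as Car3 or nearer.

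Slc4a4 is the one of the 8 genes for which RefSeq lists a pair of start regions in the promoter table. Its probe sets also disagreed most with each other, with an SD of 1.06, close to that of Car4 at 1.02. Both windows are therefore shown, each of 300 bases, with 250 before and 50 after the annotated start, on the plus strand of assembly GRCm38.p6. The first lies at chr5:88887010-88887309 and the second at chr5:89027716-89028015. Capitals mark matches, on either strand, to the motifs searched, which were the GC box (GGGCGG), the CCAAT box (CCAAT) and the TATA box (TATAAA).
Slc4a4 start 1: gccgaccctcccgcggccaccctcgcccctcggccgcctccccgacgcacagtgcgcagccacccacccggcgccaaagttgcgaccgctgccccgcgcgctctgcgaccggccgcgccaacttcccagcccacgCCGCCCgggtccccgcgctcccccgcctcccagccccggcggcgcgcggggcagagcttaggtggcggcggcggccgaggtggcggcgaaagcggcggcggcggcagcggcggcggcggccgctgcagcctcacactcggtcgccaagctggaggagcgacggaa
Slc4a4 start 2: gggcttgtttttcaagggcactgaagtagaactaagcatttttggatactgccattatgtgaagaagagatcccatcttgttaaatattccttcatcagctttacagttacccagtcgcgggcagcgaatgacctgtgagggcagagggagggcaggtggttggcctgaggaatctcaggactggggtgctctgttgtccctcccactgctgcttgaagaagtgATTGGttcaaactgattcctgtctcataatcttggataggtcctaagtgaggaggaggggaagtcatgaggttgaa
The first window had a GC content of 80.0% and 1 GC box, and the second had a GC content of 48.3% and 1 CCAAT box. Neither held the TATA letters. Over all 32851 windows of this length the median GC content was 52.7%, 35.7% held the GC box, 37.4% the CCAAT box and 13.6% the TATA box, so each of these matches is common. The deposited values do not say from which start a probe set is read, and whether the starts bear on the spread of the Slc4a4 probe sets was not tested. The table held 7 windows for 6 of the 8 genes. Slc4a3 and Car12 had a GC box, Car4 and Slc4a7 the TATA letters and Slc4a7 a CCAAT box, and that of Car14 held none of the letters searched. The TATA letters of Car4 lie after its annotated start, and those of Slc4a7 before it.

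Car2 and Car14, both known from MG, were the genes of which all probe sets lay above 9 on both arrays. Car2, the fast cytosolic enzyme, was read at a median of 11.6 in both conditions. Its difference was −0.17 ± 0.47 (SD over 7 probe sets), or 1.13-fold lower after light damage. The difference between its median levels had the other sign, at 0.06. All 7 probe sets lay within 1, with 3 above 0 and 4 below. The probe set with the highest level went from 13.0 in the control to 12.2 after light damage, a difference of −0.81. The lowest went the other way, from 9.48 to 10.0, or 0.53. Another pair of Car2 probe sets stood lower after light damage, at 10.5 against 11.1 (−0.62) and at 11.7 against 12.2 (−0.53), a further pair differed by 0.06 each, and the last by −0.17. The probe sets of Car2 thus took both signs, and none reached 1.

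Car14 is a transmembrane enzyme with its active site outside the cell, known in mouse retina from MG and the pigment epithelium. Its median level was 10.7 on both arrays, and its difference was −0.06 ± 0.35 over 8 probe sets, 4 above 0 and 4 below. Among genes at a like level (within 0.5 of its mean, with at least 5 probe sets), the SD over probe sets had a median of 0.49, and that of Car14 was the lowest of the 7 genes described. Control levels of its probe sets lay between 10.1 and 11.8 and light damage levels between 10.3 and 11.6, so the ranges overlapped. Differences ran from −0.49, from 11.8 to 11.3, to 0.39, from 10.1 to 10.5. Aph1a, which encodes a subunit of gamma-secretase, is the neighbouring gene, and the probe set that both share is described with the other observations.

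**Figure D1:**
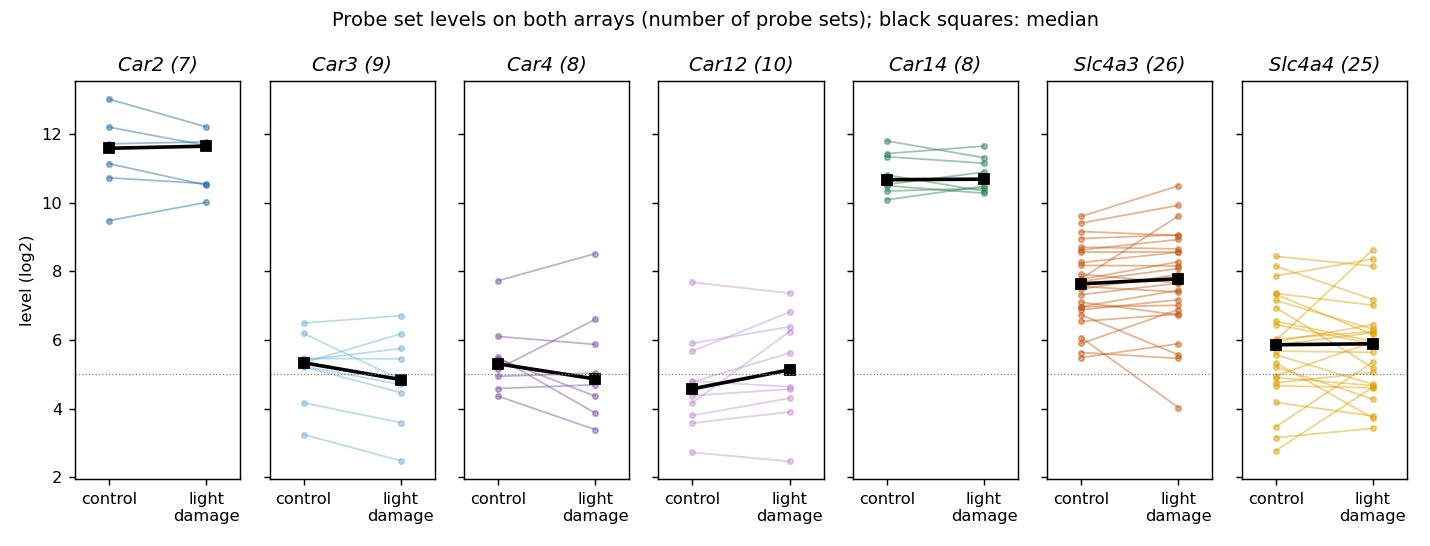
Log2 level of every probe set (coloured points, joined across both arrays) on the control and the light damage array for the 7 genes, with the number of probe sets in brackets, the median as black squares and a dotted line at a level of 5. All probe sets of Car2 and Car14 lie above 9 on both arrays, while those of Car3, Car4 and Car12 scatter about 5.

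Car3, Car4 and Car12 were read near the low end of the scale, where signal over background limits what a difference can show. Car3, a cytosolic enzyme of low activity that is abundant in muscle and fat, lies next to Car2 in the genome. Its control probe sets had a median of 5.34 and its light damage values one of 4.85, with a difference of −0.52 ± 0.68 over 9 probe sets, or 1.44-fold lower. Of these, 3 were above 0 and 6 below, and the range was −1.34 to 0.84. The 5 probe sets averaging at least 5 had a median of 0.22, so the sign of Car3 turned when dim probe sets were left out. Its highest-level probe set stood at 6.50 in the control and 6.71 after light damage.

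Car4 is held on the outer membrane face by a lipid anchor and is known from capillary endothelium, including the vessels behind the retina. Its median levels were 5.31 in the control and 4.87 after light damage, and its difference was −0.07 ± 1.02 over 8 probe sets, with 4 on each side of 0. The probe sets ranged from −1.62, from 5.50 to 3.88, to 1.44, from 5.16 to 6.60. The highest-level probe set stood at 7.73 and 8.52, a difference of 0.79, and 5 of the 8 had a mean level under 5. Readings of Car4 thus pointed both ways by more than 1. Of 11 markers of endothelial cells and pericytes, all were above 0, with a median of 0.45 against −0.03 over all genes. Of the 11, 1 was higher by 1 or more, against 1.75% of all genes. The part of such cells in the Car4 readings was not tested.

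Car12, a transmembrane enzyme with an outer active site that hypoxia induces in many human tumours, had the largest positive difference. It stood at 4.58 in the control and 5.13 after light damage, with a difference of 0.40 ± 0.73 over 10 probe sets, or 1.32-fold higher. Its mean level of 4.86 lay below the minimum of 5, so it entered the counts over 7 genes but not those over the 6 genes at that level. Its 5 probe sets averaging at least 5 had a median of 0.84. Of the 10 probe sets, 7 were above 0 and 3 below, and 2 passed 1, at 2.07 (from 4.18 to 6.25) and at 1.13 (from 5.68 to 6.81). The highest-level probe set, however, stood at 7.68 in the control and 7.37 after light damage, a difference of −0.32. The readings of Car12 thus agreed in sign in most probe sets but not in the brightest.

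**Figure D2:**
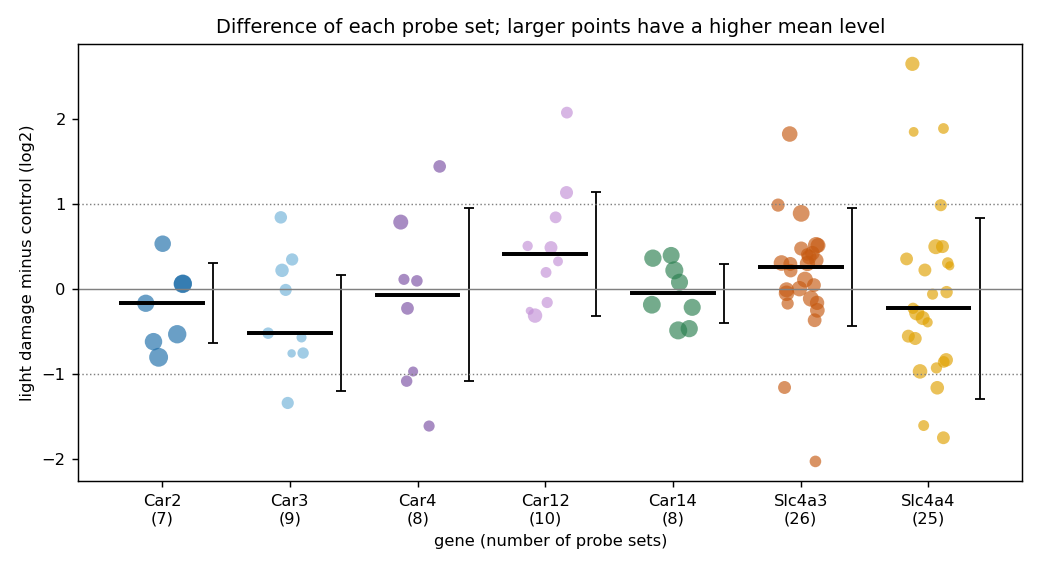
Light damage minus control log2 difference of each probe set (points, larger for a higher mean level) by gene, with the number of probe sets in brackets, the gene's median as a bar, its SD over probe sets as the error bar beside it and dotted lines at 1 and −1. The 7 medians lie between −0.52 and 0.40, and the probe sets of Slc4a4 spread from −1.75 to 2.65.

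The transporters were read by the most probe sets. Slc4a3, the anion exchanger AE3, trades chloride for bicarbonate and is known from MG and horizontal cells. Its control median was 7.64 and its light damage median 7.79. Its difference was 0.25 ± 0.69 over 26 probe sets, or 1.19-fold higher, with 17 above 0 and 9 below. Of the 26, 23 lay within 1, and the median was 0.30 over the 18 averaging at least 7. The highest-level probe set stood at 9.61 in the control and 10.5 after light damage, a difference of 0.89. Readings past 1 were 1.82 (from 7.79 to 9.62) on one side, and −2.03 (from 6.07 to 4.04) and −1.16 (from 6.73 to 5.57) on the other. Both of the lower readings came from probe sets below 7, and the higher one from a probe set above it.

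Slc4a4, the sodium-bicarbonate cotransporter NBCe1, carries net charge and is known from the endfeet of MG in salamander. Its median levels were 5.87 (control) and 5.89 (light damage), and its difference was −0.23 ± 1.06 over 25 probe sets, 10 above 0 and 15 below. The SD exceeded the median of 0.79 for genes at a like level. The largest reading was 2.65, from 5.99 to 8.64, and further high readings were 1.89 (from 3.47 to 5.36) and 1.85 (from 2.78 to 4.63). On the other side stood −1.75 (from 6.95 to 5.19), −1.61 (from 5.34 to 3.73) and −1.17 (from 7.33 to 6.16). Thus 3 probe sets were higher and 3 lower by 1 or more, and 19 lay within. Over the 5 probe sets averaging at least 7, the median was −0.28, with the reading of 2.65 among them.

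The profile over a gene's probe sets was compared between the arrays as a description of how alike they were read. Pearson's r of control against light damage levels was 0.93 for Car2 (7 probe sets), 0.89 for Slc4a3 (26), 0.88 for Car12 (10), 0.86 for Car3 (9), 0.81 for Car14 (8) and 0.81 for Car4 (8). It was 0.74 for Slc4a4 (25). These points share the same 2 arrays, and the affinity of each probe set enters both of its values. The r of Car14 rests on a narrow range of levels.

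Across all 93 probe sets, 7 were higher by 1 or more (7.53%), 8 were lower by 1 or more (8.60%) and 78 lay within 1. Over all 212138 probe sets annotated to 1 gene, 10.2% were higher and 13.2% were lower by 1 or more. In the band of mean levels from 5 to under 7, 8 of 30 probe sets of these genes passed 1 in either direction (26.7%), against 26.8% of all probe sets. Under 5, the shares were 5 of 23 (21.7%) and 31.5%, and at 7 or more 2 of 40 (5.0%) and 18.6%. Probe sets of 1 gene read the same RNA and are not replicates, so these shares are a description. The median over the 93 was 0.04, and that over all probe sets was −0.04.

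**Figure D3:**
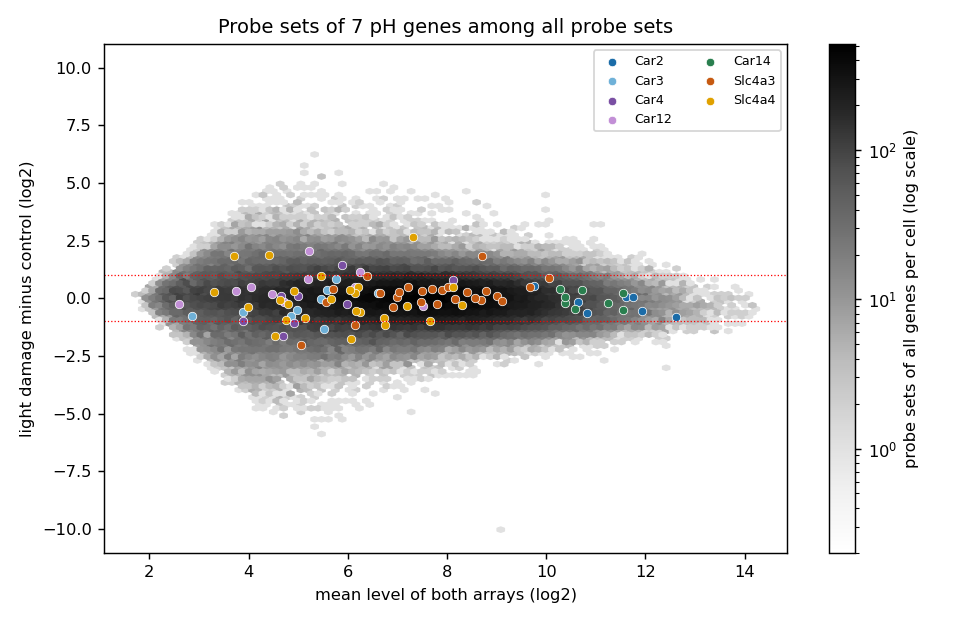
Light damage minus control log2 difference against the mean log2 level of both arrays, with all 212138 probe sets of 1 gene as grey cells (darker for more probe sets, log scale), those of the 7 genes as coloured points and dotted lines at 1 and −1. Among coloured points averaging at least 7, 2 of 40 lie past 1, and the scatter of all probe sets is wider at lower levels.

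Other genes of pH regulation were read from 7 lists with 68 genes. Values were found for 65, and 55 averaged at least 5, of which 1 was higher (1.82%) and 1 was lower (1.82%) by 1 or more. These shares lay near and below those of all genes given above, 1.75% and 3.47%. The median over the 55 genes was −0.04 (SD over genes 0.46), with 26 above 0 and 29 below. The higher gene was Slc9a3r1, which encodes NHERF1, a scaffold that ties the sodium-proton exchanger NHE3 and other membrane proteins to the cytoskeleton. It stood at 9.11 in the control and 10.2 after light damage, with a difference of 1.11 ± 0.66 over 7 probe sets, 6 of them above 0. With the mean of its probe sets in place of the median its difference was 0.75, under 1. The lower gene was Slc16a1, which encodes the lactate and proton cotransporter MCT1. It went from 11.4 to 10.1, with a difference of −1.19 ± 0.51 over 6 probe sets, all below 0.

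Of the 11 remaining carbonic anhydrases and related proteins, 8 averaged at least 5, none of these differed by 1 or more, and their median was −0.15. Of these 8, Car8, a protein of the family that lacks enzyme activity, differed most, at −0.55 ± 0.77 over 12 probe sets. Car5b, a mitochondrial enzyme, stood at 10.2 in the control and 10.0 after light damage (−0.19 ± 0.55, 8 probe sets). Car9, another enzyme that hypoxia induces, had a mean level of 4.93 and a difference of 0.39 ± 0.73. Car1, a cytosolic enzyme abundant in red cells, also lay under 5, at a mean level of 4.88, and its difference of −0.82 ± 0.63, with 5 of 5 probe sets below 0, was further from 0 than that of Car8.

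Of 7 further Slc4 transporters, 5 were above 0 and 2 below, none differed by 1 or more, and the median was 0.13. Slc4a2, the widely expressed anion exchanger AE2, differed most, at 0.59 ± 0.61, with 20 of 23 probe sets above 0, from 7.59 in the control to 8.19 after light damage. Among 12 sodium-proton exchangers and their partners the median was −0.07, and 1 (Slc9a3r1) was higher by 1 or more, against 1.75% of all genes. Slc9a7, an exchanger of the Golgi, stood at −0.87 ± 0.59 with 17 of 18 probe sets below 0. Of 7 Slc26 anion exchangers none differed by 1 or more, the median was 0.12, and Slc26a1, a sulfate transporter, differed most (0.71 ± 0.94 over 6 probe sets).

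Lactate leaves and enters cells together with protons. Of 7 genes for such cotransporters and their chaperones, 1 (Slc16a1) was lower by 1 or more, against 3.47% of all genes. None was higher, and the median was −0.15. Slc16a3, which encodes the lactate exporter MCT4, stood at −0.96 ± 1.04 over 8 probe sets, with 6 below 0. Of the chaperones, Bsg (basigin) stood at 0.08 ± 0.23 over 9 probe sets, Nptn (neuroplastin) at −0.84 ± 0.42 with 8 of 8 below 0, and Emb (embigin) at −0.15 ± 1.49 over 10. Among 8 acid-sensing receptors and proton channels the median was −0.07, and the acid-sensing channel Asic1 differed most (−0.29 ± 0.85). Regulators of bicarbonate transport had none of 6 past 1 and a median of −0.44, with 2 above 0 and 4 below. The 2 above 0 were Wnk1 (0.40 ± 0.37, 26 of 32 probe sets above 0) and Wnk4 (0.39 ± 0.99, 12 of 22). Stk39, a kinase that restrains NBCe1, stood at −0.91 ± 0.39 with 19 of 19 probe sets below 0. Ahcyl1, which encodes the NBCe1 activator IRBIT, stood at −0.85 ± 0.46 with 18 of 19 below 0. The lists hold 6 to 12 genes each at such levels, and no list is called apart from all genes.

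**Figure D4:**
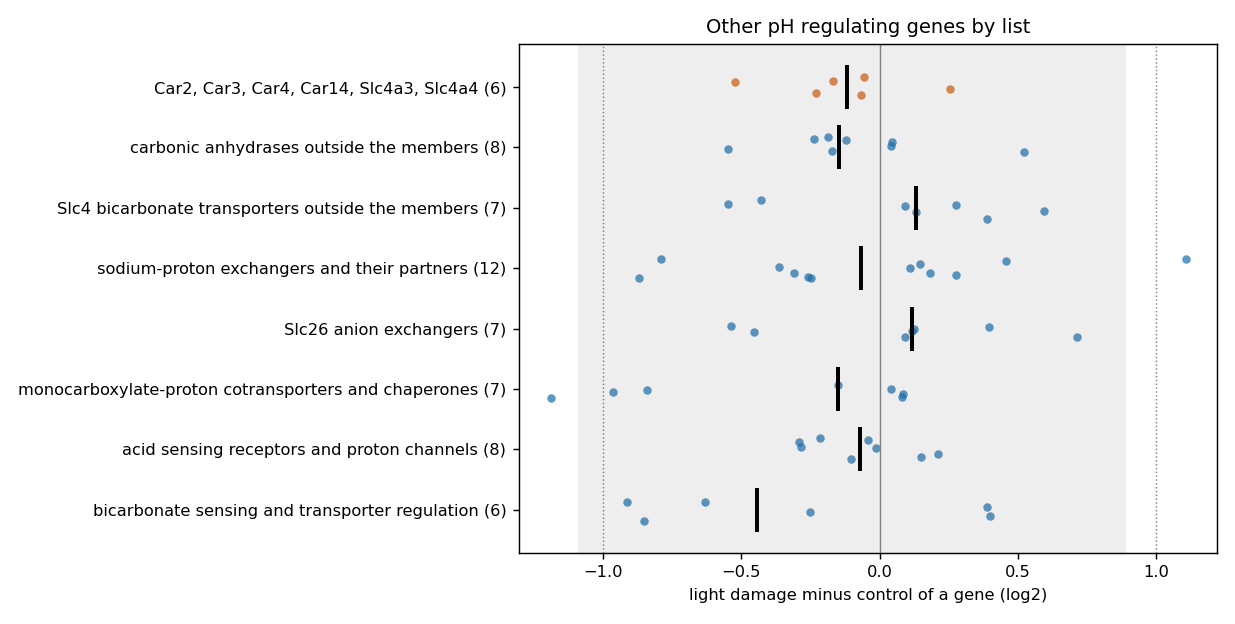
Light damage minus control log2 difference of each gene (points) at a mean level of 5 or more, by list, with the number of genes in brackets, the list median as a bar and grey shading from −1.09 to 0.89, the central 95% of all genes at such levels. Slc16a1 at −1.19 and Slc9a3r1 at 1.11 are the 2 points past 1.

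Markers of cell types were read on the same arrays to check the labelled cells. All 12 MG markers averaged at least 5, from 7.84 to 13.4 in the control, none differed by 1 or more, and their median was 0.05. Their summed level was 15.1 in the control and 15.2 after light damage (log2 of the summed linear levels). Rlbp1, the retinaldehyde-binding protein whose promoter drives the Cre, stood at −0.67 ± 0.46, and Sox9, a transcription factor of MG, differed most, at 0.88 ± 0.86. Of the 7 probe sets of Sox9, 4 were above 0 and 3 below. Its median levels stood further apart, at 9.43 in the control and 10.7 after light damage, so its value depends on the summary. The values of Car2 and Car14 lay within the range of the MG markers, −0.67 to 0.88. They also lay within those of the rod markers, −1.91 to −0.03, and the cone markers, −1.54 to 0.11. The overlap therefore does not tell these cell types apart.

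Photoreceptor markers were also read at high levels, and most stood lower after light damage. Of 12 rod markers 11 had a value, with a median of −1.07. Of these, 7 were lower and 0 higher by at least 1, against 3.47% and 1.75% of all genes. Their summed level went from 15.7 to 14.9. Pdc, which encodes phosducin, differed most (−1.91 ± 0.29). Of 8 cone markers 4 were lower by at least 1, against 3.47% of all genes. Their median was −0.99 and their summed level 13.3 and 12.2, and the opsin gene Opn1sw differed most (−1.54 ± 0.64). Slc16a1, Stk39 and Ahcyl1 stood lower on the same array, and the part of photoreceptor RNA in those values was not tested.

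Markers of cells that are known sources of single carbonic anhydrases were mostly dim. Of 10 pigment epithelium markers, 8 averaged at least 5, none of these differed by 1 or more, their median was 0.07 and their summed levels were 9.18 (control) and 9.36 (light damage). Rpe65, which defines that epithelium, lay below 5 on both arrays (4.31 and 4.63), and Ttr differed most (−0.61 ± 0.51). Of 10 erythroid markers 3 had a value and 2 averaged at least 5, with a summed level of 6.59 and 6.94, and the globin gene Hbb-b1 had a mean level of 3.96. Epb42, a red cell membrane protein, differed most of those 2 (−0.26 ± 1.06).

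All 11 endothelial and pericyte markers were above 0, and 1, the pericyte gene Rgs5, was higher by 1 or more (1.13 ± 0.70). Their median was 0.45 and their summed levels were 12.3 and 12.7, carried largely by Kdr, which stood at 11.9 and 12.2. The endothelial genes Pecam1 (5.61 and 5.92) and Cdh5 (5.63 and 5.58) were dim, and Cdh5 is counted above 0 because the median of its probe set differences was 0.31. Over all genes, 1.75% were higher and 3.47% lower by 1 or more. Among 8 microglia markers 1 was higher, the lysosomal protein Cd68 (1.45 ± 1.02), with a median of −0.01 and a summed level of 9.30 and 9.54. Bipolar cell markers had 1 of 7 lower, Cabp5 (−1.13 ± 0.46), with a median of −0.00 and a summed level of 10.7 and 10.4. Those of amacrine, ganglion and horizontal cells had none of 11 past 1, with a median of 0.10, a summed level of 10.4 and 10.1, and the neurofilament gene Nefl furthest from 0 (−0.65 ± 0.36).

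**Figure D5:**
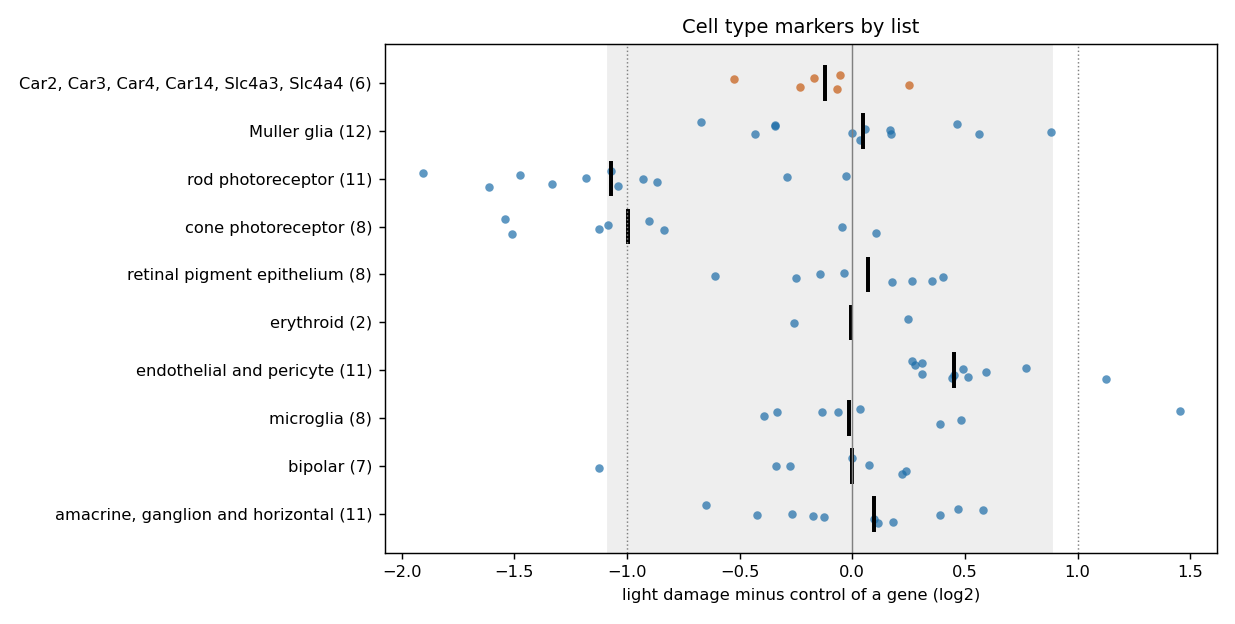
Light damage minus control log2 difference of each marker gene (points) at a mean level of 5 or more, by cell type, with the number of genes in brackets, the list median as a bar and grey shading from −1.09 to 0.89, the central 95% of all genes at such levels. Rod and cone markers have medians of −1.07 and −0.99, and the 6 carbonic anhydrase and transporter genes in the top row lie between −0.52 and 0.25.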

How the data were processed

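Amplified cDNA from sorted MG was run on Mouse Gene 1.0 ST arrays (Affymetrix), 1 for each condition. The authors deposited log2 levels per exon-level probe set, normalized with Affymetrix Power Tools and analysed with TM4 Multi-Experiment Viewer. Neither their versions nor how background was removed and probes were summarised is stated there, so these steps are not given in the sources used. Values lay between 1.57 and 14.8, with medians of 7.02 (control) and 6.99 (light damage), and 80.6% and 80.1% of probe sets stood at 5 or more. The number of arrays limits the precision.

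Of the probe sets, 212138 had 1 gene in the platform annotation, 4672 had several and 24766 had none. Of 20422 symbols, 17626 were current in RefSeq GRCm38.p6, 2689 were updated by synonym and 107 were kept. Genes were summarised by the median of their probe sets and counted at an absolute difference of 1 or more and a mean level of 5 or more, with no test. The text names all 8 genes, and in each list the genes past 1 and the one furthest from 0. Genes beyond this rule were chosen after their values were seen (Aph1a, Car5b, Car9, Car1, Slc9a7, Slc16a3, Bsg, Nptn, Emb, Ahcyl1, Wnk1, Wnk4, Rlbp1, Rpe65, Hbb-b1, Kdr, Pecam1 and Cdh5). The genes and lists were chosen with earlier results of these data known. The steps were tested on simulated data, with shifts larger than 1 planted in genes brighter than Car3, Car4, Car12 and Slc4a4. Shifts near 1 and genes as dim as these were not tried. Alternatives were quantile normalization, median centring, a loess trend removed (span 0.3), an offset of 32, other summaries of a gene, other minimum levels and other thresholds. Python 3.11.15, numpy 2.4.6, pandas 2.3.3, statsmodels 0.14.6 and matplotlib 3.10.9 were used.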

Additional observations from a re-analysis of the deposited data

Results flagged for a closer look

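The probe set annotated to both Aph1a and Car14, which entered no gene value, stood at 11.1 in the control and 11.7 after light damage, a difference of 0.53. It is given because it lies outside the values used and above its control level. The size of this difference is not unusual, since the SD of the differences was 0.77 over all probe sets averaging at least 7. The shared probe set exceeded the differences of all 8 probe sets of Car14 alone, which reached 0.39, and the share of each gene in it was not tested. With 1 array per condition, no group had the 4 samples needed to look for a sample far from the others.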

How the results depend on the processing

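None of the 7 genes reached 1 in any of 49 recalculations, and in 45 the value moved by less than the SD over probe sets. That measure is lenient where the probe sets of a gene disagree. Car4 ran from −0.18 to 0.79 and Car12 from −0.32 to 0.84, and neither moved by more than its SD. Car2 and Slc4a4 stayed below 0 and Slc4a3 above it in all 7 recalculations of each, while Car3, Car4, Car12 and Car14 took either sign. The difference between the median levels of a gene was not among these recalculations. It was above 0 for both Car2 (0.06) and Slc4a4 (0.03), so their sign depends on the summary. Read from its highest-level probe set, Car2 stood at −0.81, Car3 at 0.22, Car4 at 0.79, Car12 at −0.32, Car14 at −0.49, Slc4a3 at 0.89 and Slc4a4 at −0.28. With only probe sets at a mean level of 5 or more, Car3 stood at 0.22, Car4 at 0.79 and Car12 at 0.84, and the median over the genes was 0.22 rather than −0.12, because Car12 entered too and dim probe sets left. At a threshold of 0.5, 1 of 6 genes was lower (Car3) and 0 were higher. Over all 16534 genes, 2836 were lower and 1813 higher at that threshold.

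With the highest-level probe set, 6 of 64 other pH regulating genes were higher and 5 lower by 1 or more, against 1107 and 1342 of 18749 genes. With the mean of probe sets, 0 of 54 were higher (Slc9a3r1 at 0.75), against 278 of 16652. At a threshold of 0.5, 4 of 55 were higher and 11 lower, against 1813 and 2836 of 16534. At a threshold of 2 the counts were 0 and 0. Over all genes, the counts of 289 higher and 574 lower became 157 and 311 with the offset of 32, 1107 and 1342 with the highest-level probe set, 1813 and 2836 at a threshold of 0.5, and 27 and 9 at a threshold of 2. Of the calls over all genes 33.5% were higher, against 45.7% after quantile normalization (359 higher, 427 lower), 44.7% with the loess trend removed (354 and 438) and 38.6% after median centring (322 and 513). Levels below about 5 limit what Car3, Car4 and Car12 can show. No paired analysis was possible because each group holds 1 array.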
